A study of Homo sapiens with 6 samples.

Results

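The TRiC/CCT chaperonin and prefoldin act in series to fold newly made proteins of the cytosol. The 10 genes described here are the 8 subunits of the TRiC/CCT ring (TCP1, CCT2, CCT3, CCT4, CCT5, CCT6A, CCT7 and CCT8) and the prefoldin subunits PFDN2 and PFDN5. They were found by matching the Ensembl gene identifiers of both deposited tables to these symbols, and they are 10 of 60856 listed features. All 10 matched 1 identifier each and passed the filter on low counts.

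Messenger RNA was sequenced from wild-type Jurkat cells, a single T lymphocyte line that was grown out of a human leukaemia. The control group held 3 libraries from cells given the vehicle dimethyl sulfoxide (DMSO) at 0.1%, and the exposed group held 3 libraries from cells given 1 µM bisphenol AF (BPAF), a fluorinated relative of bisphenol A. The sample labels put the exposure at 12 h and the treatment protocol puts it at 24 h. The libraries of a group are called biological replicates, without saying whether they came from separate exposures. The p-values therefore set the group difference against the spread between these libraries, which may not be the spread between exposures.

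TRiC is a pair of stacked rings with a closed chamber, and each ring holds 1 copy of each of the 8 subunits. It uses ATP to fold proteins that fold poorly alone, above all actin and the tubulins, and also propeller-shaped regulators of the cell cycle. Prefoldin is a jellyfish-shaped complex of 6 different subunits that catches unfolded chains as they leave the ribosome and hands them to TRiC. Both complexes serve every cell type, and growing cells carry them at high levels.

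The libraries held 20253656 to 22617613 counts, and totals overlapped between the groups. All 12 T cell markers were measured, with a summed level of 3612 to 3685 CPM (counts divided by the scaled library size) in DMSO and 3486 to 3662 in BPAF. Of the markers of other lineages, the B cell list had 1 of 5 members tested (CD79A, the most abundant) and a summed CPM of 12.8 to 15.1 in DMSO and 11.7 to 12.5 in BPAF. Myeloid markers summed to at most 0.681 CPM, NK cell markers to 4.18, erythroid markers to 24.0 and fibroblast markers to 3.01. EPCAM, KRT14, CDH1, COL3A1 and DCN were at 0 in all 6 libraries. No marker of any of these lists passed the test, and whether the slightly lower B cell sum has a part in the results below was not tested.

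On the count scale, 5 of the 10 members fell in BPAF (CCT2, CCT3, CCT6A, CCT8 and PFDN5) and 0 rose, by edgeR's quasi-likelihood test at a Benjamini-Hochberg adjusted p under 0.05. Across all 15490 genes tested, 3.4% fell and 2.65% rose. High abundance alone went with a larger share of falls: among the 2716 genes at least as abundant as PFDN2, the lowest member, 11% fell and 3.02% rose. Among the 314 genes at least as abundant as CCT4, the lowest ring subunit, 27.7% fell. These abundance limits were set after the values had been seen. The median log2 fold change of the members was -0.11, beside 0.00 for all tested genes, -0.02 for the 2716 and -0.06 for the 314.

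The size of the fall depended on the scale of measurement. On the deposited TPM values (levels scaled for gene length and library total), tested with limma on log2(TPM + 1), 0 members passed and the median of the members was -0.01, beside 0.08 for all genes. In that fit 1 gene of all those tested passed the adjusted threshold, and 2705 genes and 4 members had an unadjusted p under 0.05. The log2 fold changes of TCP1, CCT3, CCT4, CCT5 and CCT7 were negative on counts and positive on TPM, so no direction is given for them without naming the scale.

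**Figure D1:**
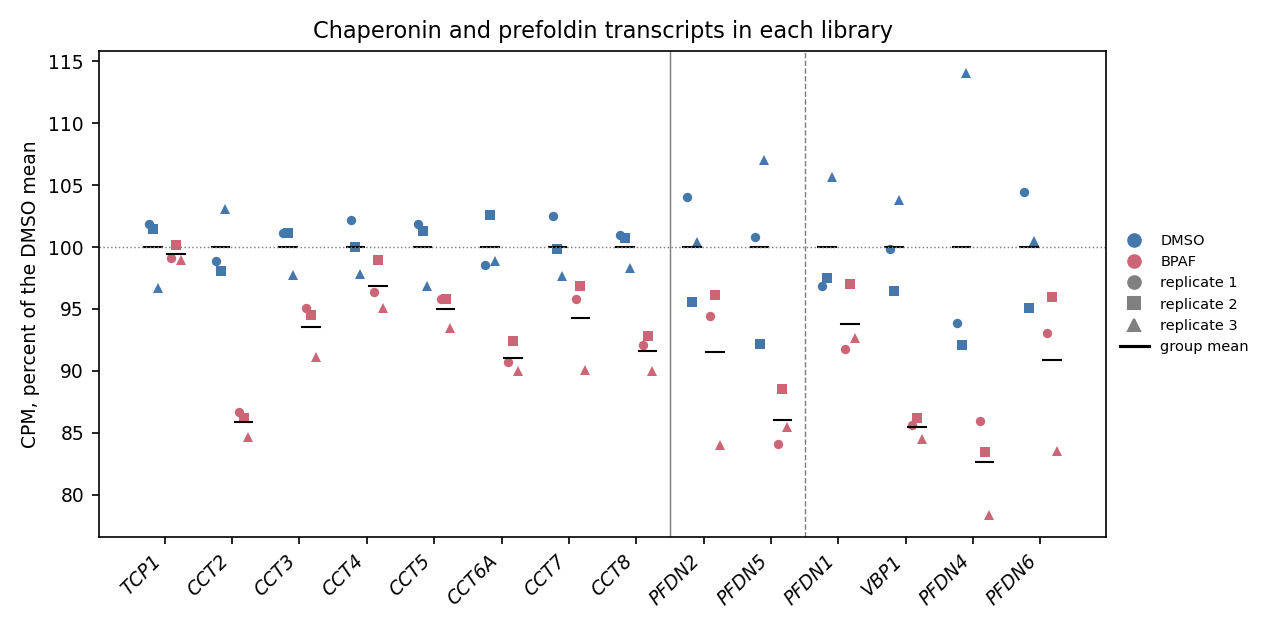
CPM of each of the 6 libraries as a percent of the DMSO mean of the same gene (y axis), for the 8 ring subunits, the prefoldin members PFDN2 and PFDN5 and, right of the dashed line, the other prefoldin subunits. Circles, squares and triangles are replicates 1, 2 and 3, and bars are group means of 3 libraries. CCT2, CCT3, CCT5, CCT6A, CCT7, CCT8, PFDN5, VBP1 and PFDN4 have BPAF points that all lie under the DMSO points on this count scale, while the groups of TCP1 overlap (on TPM the fold changes of TCP1, CCT3, CCT4, CCT5, CCT7 and PFDN1 have the opposite sign).

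Within the ring, CCT2 had the smallest p of the members. CCT2 (ENSG00000166226) encodes the beta subunit and lies on the plus strand at chr12:69585334-69601570 (GRCh38). Its CPM was 616.6, 611.9 and 642.9 in the DMSO libraries and 540.6, 537.9 and 528.3 in the BPAF libraries. All BPAF libraries were under all DMSO libraries, and the gap was several times the spread within either group. Mean CPM fell from 623.8 ± 16.7 to 535.6 ± 6.49 (SD, n = 3), which was 14.1% lower, or -0.22 ± 0.03 as a log2 fold change (SE; 95% interval -0.28 to -0.16), with an edgeR adjusted p of 0.000268. CCT2 ranked 10 by p among all tested genes.

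CCT2 was also the ring subunit whose TPM fell apart most cleanly into the groups. Its TPM was 521.7, 524.8 and 528.1 in DMSO and 488.0, 482.6 and 485.4 in BPAF, so here too the groups did not overlap. The log2 fold change on log2(TPM + 1) was -0.11, with a limma adjusted p of 0.131. On counts, CCT2 stayed past the threshold with each library left out in turn, and its adjusted p was at most 0.0062.

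CCT6A (ENSG00000146731), the zeta subunit, lies on the plus strand at chr7:56051630-56063989. Its CPM was 697.2, 725.9 and 699.8 in DMSO and 641.9, 653.8 and 636.8 in BPAF. The groups were apart, and the mean went from 707.6 ± 15.9 to 644.2 ± 8.74 (SD, n = 3). This was 8.97% lower, or -0.14 ± 0.03 as a log2 fold change (SE), with an edgeR adjusted p of 0.00674. Without BPAF replicate 1 that p was 0.0586. On log2(TPM + 1) the log2 fold change was -0.02 with a limma adjusted p of 0.792, and the TPM groups overlapped.

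CCT6A has close copies on the same chromosome that the counting could have shared reads with. CCT6P1, a pseudogene at chr7:65751142-65763354, had 44.8 ± 1.11 CPM in DMSO and 47.6 ± 0.793 in BPAF (SD, n = 3). CCT6P3, another pseudogene at chr7:65038354-65074713, had 5.25 ± 0.280 CPM in DMSO and 5.93 ± 0.401 in BPAF. For both copies every BPAF library was above every DMSO library on CPM, as for 12% of all tested genes. Neither passed the test (log2 fold changes 0.09 and 0.18, edgeR adjusted p = 0.353 and 0.529). On TPM the groups of both overlapped, with log2 fold changes on log2(TPM + 1) of -0.02 for CCT6P1 and 0.09 for CCT6P3. With the 3 genes summed, a setting added after seeing the data, the log2 fold change was -0.12 with an edgeR adjusted p of 0.0136. Of the other pseudogenes of the ring subunits, none had more than 0.183 CPM in any library (CCT8P1). CCT6B, the testis form of the zeta subunit, had 0.703 ± 0.211 CPM in DMSO and 0.498 ± 0.163 in BPAF.

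CCT8 (ENSG00000156261), the theta subunit, lies on the minus strand at chr21:29055805-29073797. Its CPM was 944.6, 941.7 and 919.2 in DMSO and 861.4, 868.0 and 841.3 in BPAF. The groups did not overlap, and the mean fell from 935.2 ± 13.9 to 856.9 ± 13.9 (SD, n = 3). This was 8.37% lower, or -0.13 ± 0.03 as a log2 fold change (SE), with an edgeR adjusted p of 0.00866. The call was lost when DMSO replicate 1 (adjusted p = 0.0596), BPAF replicate 1 (0.0619) or BPAF replicate 3 (0.0504) was left out. It was also lost with a length and GC offset (0.0602; 0.0693 with a replicate block as well). On log2(TPM + 1) the log2 fold change was -0.05 with a limma adjusted p of 0.52, and the TPM groups overlapped.

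CCT3 (ENSG00000163468), the gamma subunit, lies on the minus strand at chr1:156308968-156367873, a span that it shares in part with TSACC. Its CPM was 856.2, 856.7 and 827.8 in DMSO and 805.2, 800.3 and 771.4 in BPAF, again with no overlap. The log2 fold change on counts was -0.10 ± 0.03 (SE) with an edgeR adjusted p of 0.0484, and on log2(TPM + 1) it was 0.01. This was the least secure of the ring's calls. It was lost in 5 of the 6 fits that left a library out, with adjusted p of 0.179 and 0.107 when DMSO replicates 1 and 2 were left out, and of 0.129, 0.0692 and 0.192 when BPAF replicates 1, 2 and 3 were. It was also lost with upper quartile scaling (0.0869), a stricter count filter (0.0546), the replicate block (0.0648; 0.0564 with the length and GC offset), protein-coding genes only (0.0828) and TPM (0.936).

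The other 4 ring subunits did not pass the test. TCP1 (ENSG00000120438), the alpha subunit for which the complex is named, lies on the minus strand at chr6:159778498-159789749. Its CPM was 840.6, 837.4 and 797.8 in DMSO and 817.6, 826.6 and 816.8 in BPAF. All 3 BPAF values fell inside the DMSO range, and the log2 fold change was -0.01 ± 0.03 (SE; 95% interval -0.07 to 0.05; edgeR adjusted p = 0.915). Its sign was positive with upper quartile scaling, the length and GC offset, protein-coding genes only, TPM values, or DMSO replicate 1 left out.

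On counts, but not on TPM, CCT5, CCT7 and CCT4 lay between TCP1 and the called subunits. CCT5 (ENSG00000150753; epsilon subunit, chr5:10249921-10266412, plus strand), in which variants cause a hereditary sensory neuropathy, had 740.7, 736.8 and 703.9 CPM in DMSO and 696.5, 696.8 and 679.5 in BPAF. CCT7 (ENSG00000135624; eta subunit, chr2:73233420-73253021, plus strand) had 857.4, 834.6 and 816.8 CPM in DMSO and 800.9, 810.0 and 753.5 in BPAF. CCT4 (ENSG00000115484; delta subunit, chr2:61868089-61888804, minus strand) had 453.8, 444.1 and 434.2 CPM in DMSO and 428.0, 439.5 and 422.2 in BPAF. The groups of CCT5 and CCT7 did not overlap and those of CCT4 did.

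The log2 fold changes of these 3 on counts were -0.07 for CCT5 (95% interval -0.13 to -0.01), -0.09 for CCT7 (-0.15 to -0.02) and -0.05 for CCT4 (-0.11 to 0.01), and all 3 were positive on log2(TPM + 1), at 0.14, 0.0025 and 0.05. Their edgeR adjusted p on counts were 0.142, 0.113 and 0.396. The intervals of CCT5 and CCT7 do not hold 0, so missing the threshold after adjustment does not show that they stayed level.

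Counting the ring as a whole, the groups did not overlap, with BPAF lower, for 6 of 8 subunits on CPM, and for 7 of all 10 members. The share of all tested genes with that pattern was 12.8%, and it was 28.2% among the 2716 genes at least as abundant as PFDN2. It was not counted among the 314 genes at least as abundant as CCT4, so the ring's 6 of 8 has no share at its own abundance beside it. The log2 fold change was below 0 for 10 of 10 members on counts, for 49.2% of all tested genes, for 64.9% of those 2716 genes and for 82.2% of the 314 genes at least as abundant as CCT4. A sign below 0 was therefore common at this abundance, and the signs alone do not set the ring apart. On log2(TPM + 1) 5 of the 10 signs turned, but there the median of all tested genes was itself above 0, at 0.0775. Of the turned members, CCT5 (0.137) was above that median, and TCP1 (0.0770), CCT4 (0.0486), CCT3 (0.0071) and CCT7 (0.0025) were below it. The share of all genes whose sign turned was not counted.

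**Figure D2:**
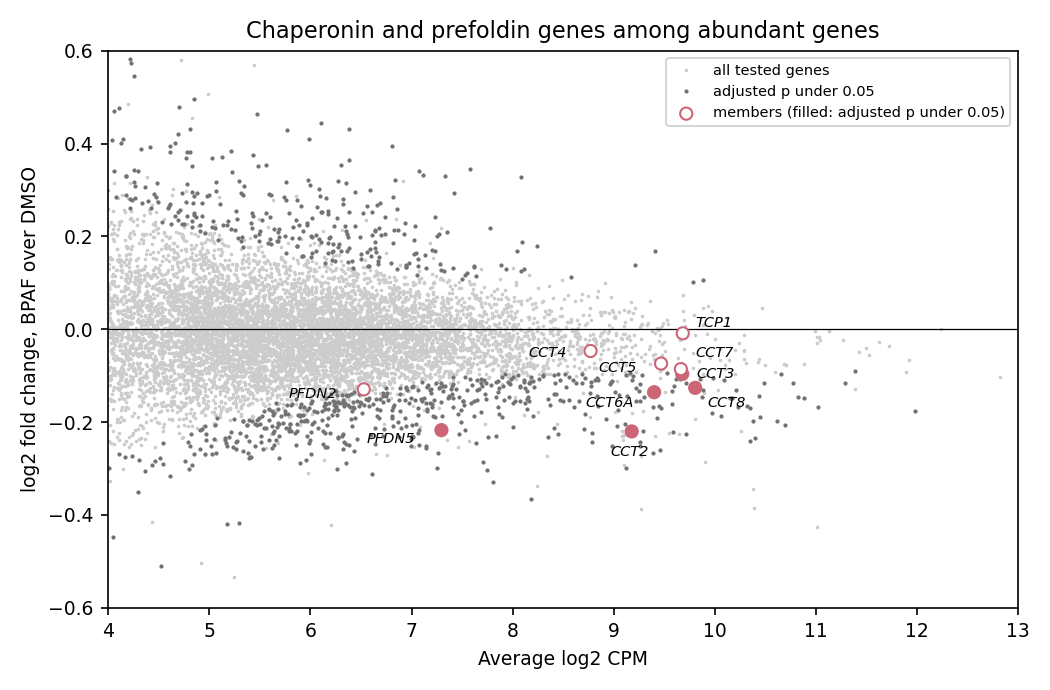
Log2 fold change on counts (y axis, BPAF over DMSO) against average log2 CPM (x axis) for genes above an average log2 CPM of 4. Grey points are tested genes, dark points those past the adjusted threshold, and red circles the 10 members, filled where they passed. The members sit in the abundant part of the plot, where most points lie below 0, with CCT2 and PFDN5 lowest at -0.22 and TCP1 at -0.01 (TCP1, CCT3, CCT4, CCT5 and CCT7 have positive values on TPM).

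The BPAF libraries were not equally low. The median deviation of the members from their DMSO mean was -0.08, -0.07 and -0.15 on the log2 scale in BPAF replicates 1, 2 and 3, and 0.02, 0.01 and -0.03 in DMSO replicates 1, 2 and 3. BPAF replicate 3 thus had the lowest members. In BPAF replicates 1, 2 and 3, 10, 9 and 10 of the members were under their DMSO mean on CPM, and in DMSO replicates 1, 2 and 3 it was 2, 4 and 7. Without BPAF replicate 3 the number of members that passed was 2, and without BPAF replicate 1 it was 1, CCT2.

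Ratios between subunits within a library need no scaling between libraries. TCP1 was taken as the reference after it had been seen to have the smallest change of the members, so ratios to it restate the fold changes and are given as a description. The count of CCT2 was 0.734, 0.731 and 0.806 of that of TCP1 in DMSO and 0.661, 0.651 and 0.647 in BPAF. The BPAF ratios were all under the DMSO ratios, and the mean was 13.7% lower. The ratio to TCP1 was lower without overlap for 7 of the 9 other members, for 9.46% of all other tested genes and for 19.8% of the 2715 at least as abundant as PFDN2. Besides CCT2, the means were 13.6% lower for PFDN5, 8.46% for CCT6A, 7.85% for CCT8, 5.90% for CCT3, 5.21% for CCT7 and 4.41% for CCT5. For CCT4 and PFDN2 the groups overlapped. With 3 libraries against 3 the smallest two-sided exact permutation p is 0.1, so these ratios have no p that could pass.

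Per length, the ring subunits differed among themselves even though each ring holds 1 copy of each. In DMSO, TPM was 784.1 ± 31.3 for CCT8, 728.4 ± 27.6 for CCT7, 728.3 ± 25.7 for TCP1 and 677.9 ± 29 for CCT3 (SD, n = 3), and the library ranges of neighbours in that order met or overlapped except between CCT8 and CCT7. Lower followed CCT5 at 566.1 ± 39.1, CCT2 at 524.9 ± 3.23, CCT6A at 439.4 ± 20.9 and CCT4 at 286.2 ± 12.1, each apart from its neighbours in every DMSO library. CCT4, the delta subunit, thus had the lowest transcript level of the ring. In BPAF the 3 lowest were the same, with CCT2 at 485.3 ± 2.71, CCT6A at 432.4 ± 4.01 and CCT4 at 295.9 ± 4.41, while TCP1 at 768.0 ± 7.47 was above CCT8 at 759.4 ± 5.43.

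**Figure D3:**
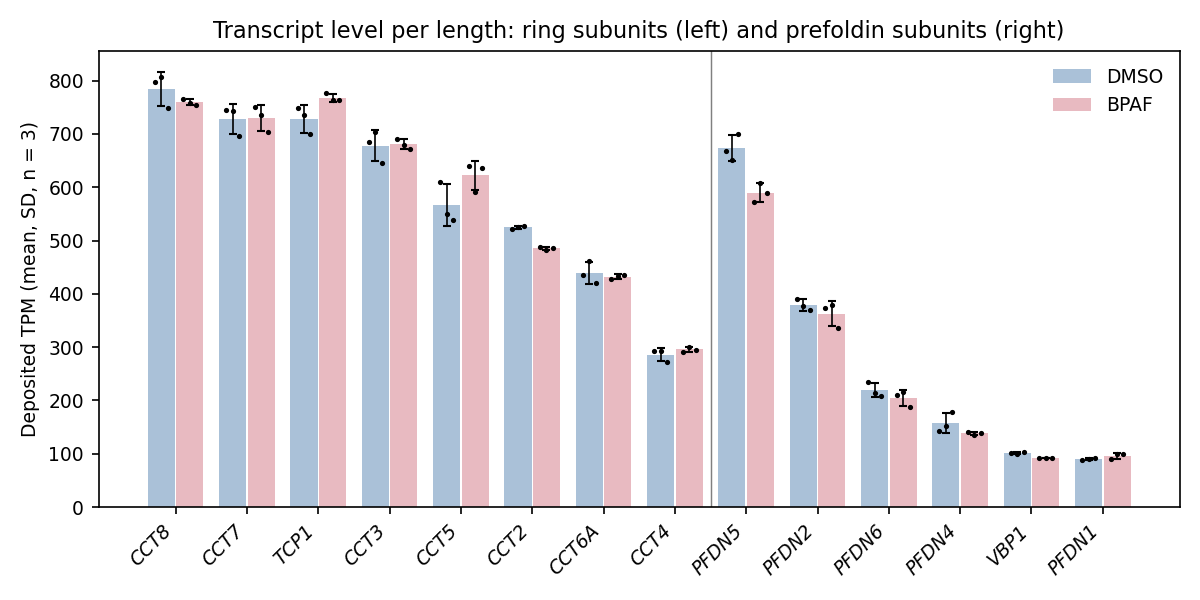
Deposited TPM (y axis) of the ring subunits, left of the line, and of the 6 prefoldin subunits, right of it, in DMSO (blue) and BPAF (red). Bars are means of 3 libraries with SD, and points are libraries. CCT4 is the lowest ring subunit in both groups, and CCT2 and PFDN5 have BPAF points under all DMSO points, while TCP1 has BPAF points above all DMSO points on TPM (on CPM the groups of TCP1 overlap).

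The summed ring was lower in BPAF on counts and not on TPM. The 8 subunits summed to 4735 ± 161 TPM in DMSO and 4774 ± 49.4 in BPAF (SD, n = 3) and overlapped, whereas on the count scale they summed to 5946 ± 90.3 CPM in DMSO and 5558 ± 96.2 in BPAF, without overlap. Of the TPM sum, CCT2 held 11.1% ± 0.449 in DMSO and 10.2% ± 0.0623 in BPAF. CCT8 held 16.6% ± 0.152 in DMSO and 15.9% ± 0.0825 in BPAF. TCP1 held 15.4% ± 0.0973 in DMSO and 16.1% ± 0.0103 in BPAF. The groups did not overlap for these 3 shares, with CCT2 and CCT8 lower and TCP1 higher in BPAF, and they overlapped for the other 5. No test was run on these shares.

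The 2 deposited tables disagreed most for CCT5. Its TPM was 610.8, 549.4 and 538.2 in DMSO and 640.1, 590.8 and 635.7 in BPAF, so the groups overlapped and the BPAF mean was higher, while its CPM was lower in BPAF. The number of counts per TPM unit, relative to the library's median gene, was 0.673 ± 0.0389 in DMSO and 0.620 ± 0.0257 in BPAF (SD, n = 3). That ratio changed by -7.93%, and among the 6731 genes whose log2 CPM averaged 5 or more, 4.13% had a lower change. Among the other ring subunits CCT6A came next, with a change of -1.45%. Of the prefoldin subunits, PFDN1 changed by -5.87%, PFDN5 by 4.84% and PFDN6 by 3.82%, and the others by less. The part of this ratio in the opposite signs of CCT5 was not tested.

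**Figure D4:**
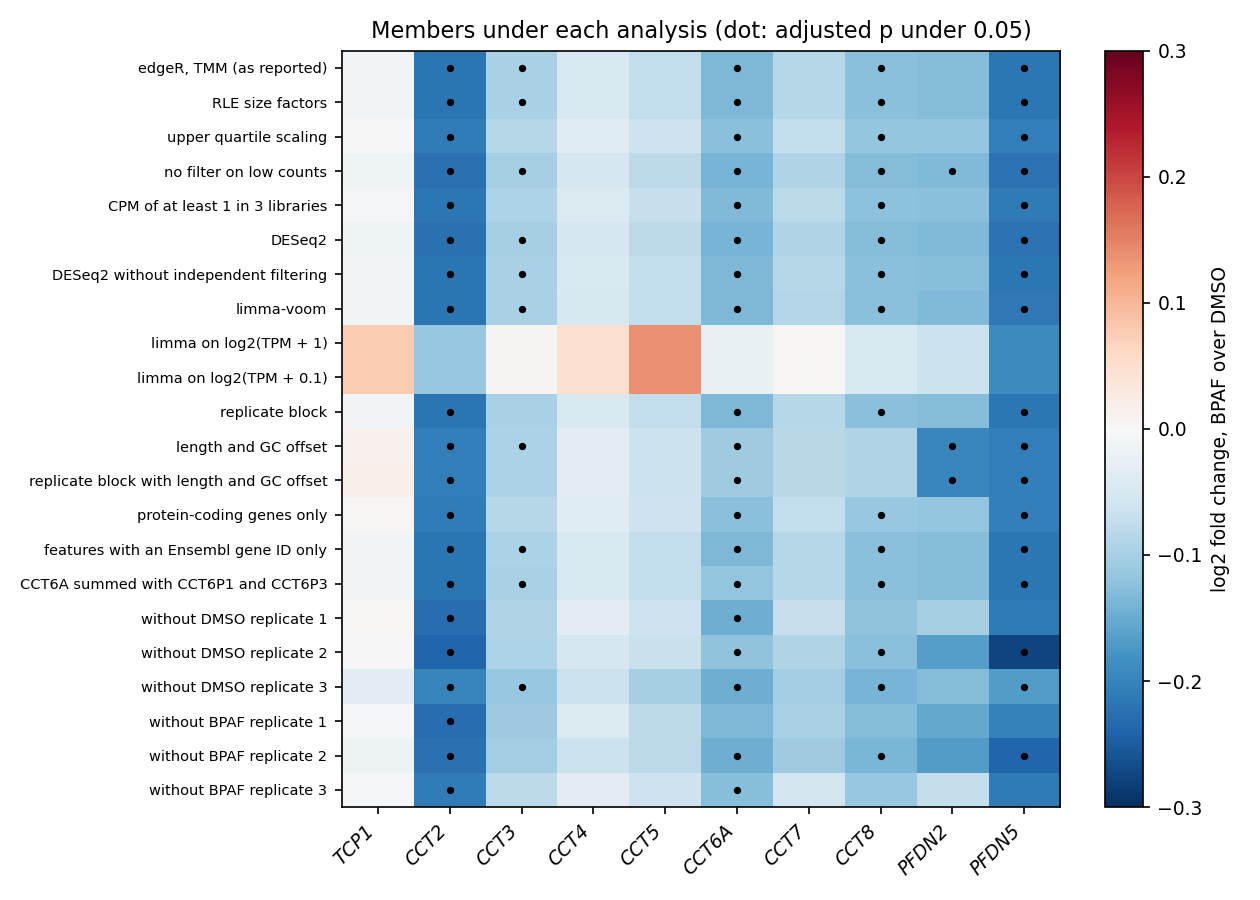
Log2 fold change of each member (columns, colour scale from -0.3 to 0.3, blue for lower in BPAF) under the reported analysis and 21 alternatives (rows), with a dot where the adjusted p was under 0.05. CCT2 is blue with a dot in every row but the 2 TPM rows, where TCP1, CCT3, CCT4, CCT5 and CCT7 turn to positive values and no member has a dot.

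Promoter sequence is shown for the CCAAT box, which 3 of the 4 called ring genes had in their windows, as they had the GC box. RefSeq windows of 300 bases (250 before to 50 after the transcript start, GRCh38.p14) were found for 8 of the 10 members, in 10 windows, and CCT6A and PFDN2 were not matched. CCAAT, searched on both strands (ATTGG on the other), occurred in the windows of CCT2, CCT3, CCT8 and TCP1, that is 4 of 8 members, and in 39.7% of 27305 genes and 34.6% of 35116 windows. The 25 bases around each match are given 5′ to 3′ along the gene's strand, with the match in capitals. None of the matches overlapped another motif searched.
CCT2, chr12:69585358-69585382, plus strand, 91 bases before the start: ccgtggggctCCAATcaaaatggga
CCT3, chr1:156338353-156338377, minus strand, 75 bases before the start: aaggctgtcaATTGGtctgtttttg
CCT3, chr1:156338312-156338336, minus strand, 34 bases before the start: gggtgcggtgATTGGcgactacctt
CCT8, chr21:29073697-29073721, minus strand, 63 bases before the start: gggtgggctaATTGGagagccagga
TCP1, chr6:159789742-159789766, minus strand, 154 bases before the start: cggctatctaATTGGacaaaaatgc

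Among the ring genes with windows, the called CCT2, CCT3 and CCT8 and the uncalled TCP1 (-0.01 on counts, 0.08 on TPM) had a CCAAT match, and the uncalled CCT4, CCT5 and CCT7 had none. The CCT2, CCT3 and CCT8 matches lie inside the spans that GENCODE 29 gives these genes, whose first transcripts start further upstream, and the TCP1 match lies just outside its span, with only the printed flank crossing the edge. The heat shock element GAANNTTC, searched on both strands, was in windows of CCT2 and TCP1 and in 8.21% of genes. The ETS motif CCGGAAG was in windows of CCT2 and PFDN5 and in 12.2% of genes, the GC box GGGCGG in windows of CCT2, CCT3, CCT7, CCT8 and TCP1 and in 48.3% of genes. The E-box CACGTG was in no member's window and in 8.77% of genes. A match describes letters and does not show that a factor binds there.

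Prefoldin delivers chains to TRiC, and PFDN5 fell while PFDN2 did not pass. PFDN5 (ENSG00000123349), an alpha-type prefoldin subunit also known as a binding partner of MYC, lies on the plus strand at chr12:53295291-53299450. Its CPM was 170.2, 155.6 and 180.7 in DMSO and 142.0, 149.5 and 144.3 in BPAF. The BPAF libraries were all below the DMSO libraries, though DMSO replicate 2 came near them. Mean CPM fell from 168.8 ± 12.6 to 145.3 ± 3.83 (SD, n = 3), which was 14% lower, or -0.22 ± 0.05 as a log2 fold change (SE; 95% interval -0.32 to -0.12), with an edgeR adjusted p of 0.014.

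PFDN5 kept its direction on TPM, with 669.0, 651.1 and 699.9 in DMSO and 572.2, 608.7 and 589.1 in BPAF, and the groups were again apart. The limma adjusted p on log2(TPM + 1) was 0.111. On counts the call was lost when DMSO replicate 1 (adjusted p = 0.0683), BPAF replicate 1 (0.0749) or BPAF replicate 3 (0.0937) was left out. MYG1-AS1, an annotated antisense gene, overlaps the PFDN5 span, and the strand setting of the counting is not stated, so reads of both genes may not have been separated. The same holds where opposite-strand genes overlap the spans of other members: ACAT2 at the end of TCP1, TSACC within CCT3, COMMD1 at the start of CCT4 and NIT1 at the start of PFDN2.

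PFDN2 (ENSG00000143256), a beta-type subunit shared with a second, prefoldin-like complex, lies on the minus strand at chr1:161100556-161118111. Its CPM was 100.2, 92.0 and 96.7 in DMSO and 90.9, 92.6 and 80.9 in BPAF. BPAF replicate 2 lay inside the DMSO range and BPAF replicate 3 well below it. The log2 fold change was -0.13 ± 0.05 (SE; 95% interval -0.23 to -0.03) with an edgeR adjusted p of 0.139, and PFDN2 passed without a filter on low counts (0.0358) and with the length and GC offset (0.0403). Without BPAF replicate 3 its log2 fold change was -0.07 (adjusted p = 0.47), and without BPAF replicate 2 it was -0.17 (0.0784).

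The other 4 prefoldin subunits are not members but complete the complex. VBP1, the second alpha-type subunit and a partner of the VHL protein, had 104.1, 100.6 and 108.2 CPM in DMSO and 89.3, 89.9 and 88.1 in BPAF. It fell by 0.23 ± 0.04 on the log2 scale (SE; edgeR adjusted p = 0.00182), with no overlap, and it passed in every alternative except the 2 on TPM. PFDN4 had 43.8, 42.9 and 53.2 CPM in DMSO and 40.1, 38.9 and 36.5 in BPAF. Its groups were apart, with DMSO replicate 3 far above the rest, and it fell by 0.28 ± 0.08 (SE; edgeR adjusted p = 0.0466). Without DMSO replicate 3 the log2 fold change of PFDN4 was -0.17 with an adjusted p of 0.111, and only the fit without DMSO replicate 2 among the 6 that left a library out kept the call (0.0179). The others gave 0.0589 without DMSO replicate 1 and 0.101, 0.119 and 0.188 without BPAF replicates 1, 2 and 3. The call on PFDN4 was also lost with RLE (0.052) and upper quartile scaling (0.0586), limma-voom (0.0533), the replicate block (0.0879), the length and GC offset (0.0555; 0.12 with the block), protein-coding genes only (0.0574) and TPM (0.28).

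PFDN6 and PFDN1, both beta-type, did not pass the test. On the log2 scale PFDN6 differed by -0.14 ± 0.05 (SE; edgeR adjusted p = 0.128) and PFDN1 by -0.09 ± 0.05 (0.268), with overlapping groups for both, and the mean TPM of PFDN1 was higher in BPAF (90.4 ± 2.46 and 96.2 ± 5.71; SD, n = 3). Without BPAF replicate 3 the value of PFDN6 was -0.08, and without DMSO replicate 3 that of PFDN1 was -0.05. Of all 6 prefoldin subunits, 3 fell on counts, beside 3.4% of all tested genes, and the median of the 6 was -0.18. PFDN1, PFDN4 and PFDN6 are less abundant than PFDN2, and the share was not counted at their abundance. On log2(TPM + 1) their median was -0.12, with 0 past the threshold, beside 0.08 for all genes. The 6 subunits summed to 1621 ± 33.7 TPM in DMSO and 1483 ± 43.6 in BPAF (SD, n = 3), and to 557.9 ± 28.8 and 492.0 ± 16.5 CPM, without overlap on either scale. The prefoldin sum was thus lower in BPAF on TPM, where the groups of the ring sum overlapped and the median of all genes was above 0. PFDN5 held the largest part of the prefoldin difference, with 673.3 ± 24.7 TPM in DMSO and 590.0 ± 18.3 in BPAF.

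The genes around the 2 complexes were looked at through lists of their helpers. The prefoldin-like and R2TP complexes, which assemble RNA polymerases and large kinases, had 0 of 9 genes past the test and a median of -0.06. The smallest p among them were those of UXT, a prefoldin-like subunit (log2 fold change -0.15, edgeR adjusted p = 0.179), and POLR2E, a polymerase subunit carried by the complex (-0.09, 0.192), and UXT passed with the length and GC offset alone (0.0442). The phosducin-like cochaperones bind TRiC and adjust its folding of client proteins. Of the 3 tested, 1 gene fell, beside 3.4% of all tested genes. That gene, TXNDC9, had 29.1, 31.0 and 33.3 CPM in DMSO and 27.7, 25.4 and 23.3 in BPAF, with no overlap, a log2 fold change of -0.29 ± 0.07 (SE) and an edgeR adjusted p of 0.0184. The call on TXNDC9 was lost without DMSO replicate 3 (0.0818), without BPAF replicate 3 (0.112) and on TPM (0.354). It was also lost with the replicate block and the length and GC offset together (0.0917), and DESeq2's own filter gave it no adjusted p. PDCL2 was at 0 in all libraries.

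Relatives of the chaperonin that act elsewhere did not pass in the reported fit, and HSPE1 passed in 7 of the 21 alternatives. Of the chaperonin-like genes, 0 of 4 tested passed, and the smallest p were those of MKKS, part of the assembly complex for the ciliary BBSome (log2 fold change -0.15, edgeR adjusted p = 0.0914), and CCT6B (-0.50, 0.561). The mitochondrial chaperonin had HSPD1, its barrel, at -0.07 ± 0.04 (SE; edgeR adjusted p = 0.288) and HSPE1, its lid, at -0.14 ± 0.04 (0.0536). HSPE1 passed without a filter on low counts (0.000468), by DESeq2 with and without its filter (0.0106 and 0.0321), with the length and GC offset without and with the block (0.00617 and 0.00827), and without DMSO replicate 2 (0.00772) or BPAF replicate 2 (0.0421). HSPD1 passed without DMSO replicate 3 alone (0.014). The spans of HSPD1 and HSPE1 overlap in the annotation. For HSPE1 the BPAF libraries (398.2, 408.7 and 378.1 CPM) were all under the DMSO libraries (459.5, 410.9 and 432.7), with BPAF replicate 2 close to DMSO replicate 2.

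**Figure D5:**
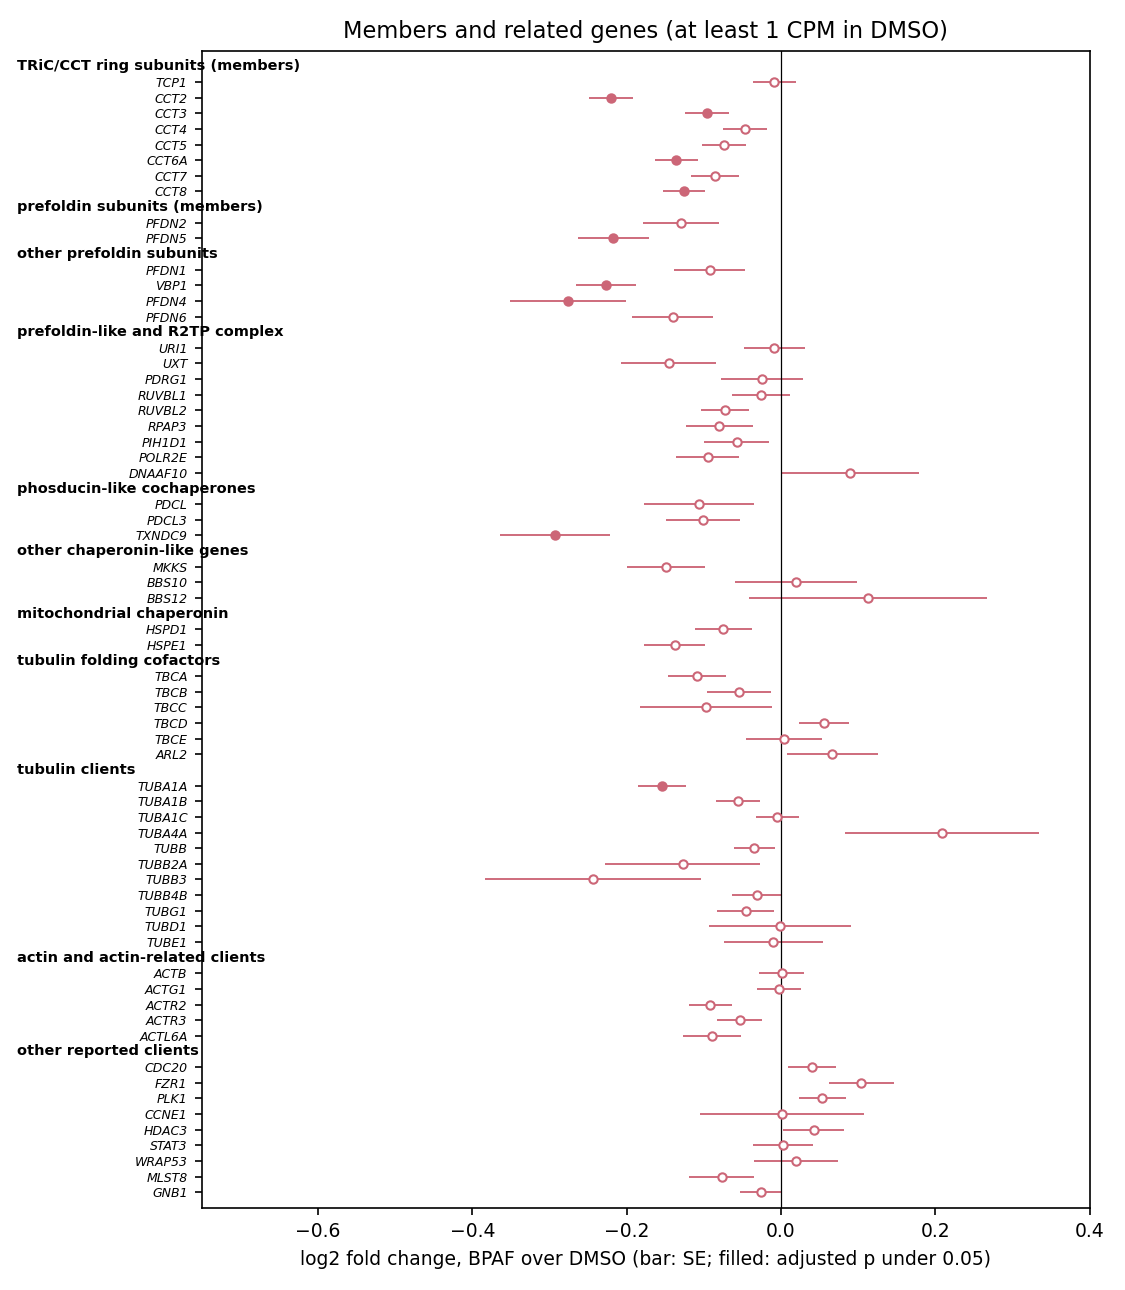
Log2 fold change on counts (x axis, BPAF over DMSO, bar for SE) of the members and of the related genes with at least 1 CPM in DMSO, grouped by role. Filled circles passed an adjusted p under 0.05: CCT2, CCT3, CCT6A, CCT8, PFDN5, VBP1, PFDN4, TXNDC9 and TUBA1A, all below 0 (CCT3, like TCP1, CCT4, CCT5 and CCT7, is above 0 on TPM).

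Downstream of TRiC, the tubulin cofactors take over folded tubulin and build the dimer. None of the 6 passed (median -0.03), and the smallest p were those of TBCA, which holds beta-tubulin (log2 fold change -0.11, edgeR adjusted p = 0.0892), and TBCD (0.06, 0.362), and TBCA passed without a filter on low counts (0.0427). Among the proteins that TRiC folds, 1 of 27 client genes fell and 0 rose, with a median of -0.03. Of all tested genes 3.4% fell and 2.65% rose, so the client count was near the share of all genes. The 1 was TUBA1A, an alpha-tubulin, with 201.8, 212.3 and 205.3 CPM in DMSO and 183.6, 189.0 and 184.0 in BPAF. Its groups did not overlap, and it fell by 0.15 ± 0.03 (SE; edgeR adjusted p = 0.00546), a call that ended in the 2 TPM fits alone. TUBA1A overlaps TUBA1C in the annotation and is nearly identical in sequence to other alpha-tubulins, so its estimated counts are uncertain.

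The 2 cytoplasmic actins were level within their error on counts. ACTB, the main cytoplasmic actin, had 4839 ± 144 CPM in DMSO and 4843 ± 95 in BPAF (SD, n = 3), and its log2 fold change was 0.00 ± 0.03 (SE; edgeR adjusted p = 0.993). ACTG1 was at 2037 ± 61.2 and 2033 ± 19.5 CPM (adjusted p = 0.976). The main tubulins were lower in BPAF without overlap on counts but did not pass: TUBB went from 3434 ± 42.2 to 3351 ± 23.2 CPM (edgeR adjusted p = 0.517) and TUBA1B from 3007 ± 10.2 to 2892 ± 95.5 CPM (0.29; SD, n = 3 for both). Lower CPM without overlap was seen for 12.8% of all tested genes and for 28.2% of the 2716 at least as abundant as PFDN2. The median log2 fold change of the 13 tubulin genes was -0.05 on counts and 0.02 on log2(TPM + 1). Of the 5 actin genes the smallest p were those of ACTR2 (-0.09, edgeR adjusted p = 0.0529) and ACTL6A (-0.09, 0.177), and ACTR2 passed by DESeq2 (0.0211) and without DMSO replicate 3 (0.0473). Among 9 other clients they were those of FZR1, an activator of the anaphase-promoting complex (0.10, 0.163), and MLST8, a subunit of the mTOR complexes (-0.08, 0.324).

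All values come from RNA of whole cultures, in which fewer cells that carry a transcript and less RNA per cell cannot be told apart. Levels of the encoded proteins were not analysed here.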

How the data were processed

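Polyadenylated RNA of 3 DMSO and 3 BPAF libraries was read as stranded pairs, per the labels' protocols. FastQC, cutadapt, HISAT2 and featureCounts and the builds GRCh38 and hg38 are named in the submitters' processing notes. The authors deposited estimated counts per gene, with decimals, and TPM values. The annotation, the strand setting and how the TPM were computed are not given in the sources used here. Every table column matched a library by title, and 0 columns were unmapped.

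Estimated counts were rounded to whole numbers (20253656 to 22617613 per library), and genes kept by filterByExpr were tested in edgeR 4.0.16 (R 4.3.3) by quasi-likelihood, with TMM scaling, robust dispersions and the group as only term. Benjamini-Hochberg adjustment ran over 15490 genes, with a threshold of 0.05. The SE is the log2 fold change divided by the square root of F, and the biological coefficient of variation was 3.77%. CPM are TMM-scaled counts. The members' counts per library ran from 1857 (PFDN2) to 20645 (CCT8). Of 60856 features, 60664 had Ensembl identifiers, 40826 of them a symbol and 58396 an entry in GENCODE 29, which gave coordinates. Of the fits, only this edgeR fit was tested on simulated data.

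The members and lists were chosen with earlier results of these data known. Named were all members, all prefoldin subunits, the members' pseudogenes, CCT6B and, from each other list, up to 4 genes that passed or else up to 2 with the smallest p. Outside this rule, ACTB, ACTG1, TUBB and TUBA1B were named as main actins and tubulins, and PDCL2 as an untested cochaperone. The deposited TPM were tested with limma 3.58.1 on log2 with a pseudocount of 1 or 0.1. Other alternatives were DESeq2 1.42.0, limma-voom, RLE and upper quartile scaling, no filter or a CPM of at least 1 in 3 libraries, a replicate block, a length and GC offset, protein-coding genes only and each library left out. Identified genes only and CCT6A summed with its copies were added after the data were seen.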

Additional observations from a re-analysis of the deposited data

How the results depend on the processing

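Of the 5 members called on counts, CCT2 passed in 19 of 21 alternatives, CCT6A in 18, PFDN5 in 16, CCT8 in 14 and CCT3 in 9, while PFDN2 passed in 3. The deposited TPM moved the results most, and the cause was not tested. With a pseudocount of 1 or 0.1, 0 members passed, and their median was -0.0097 in both. The median of all tested genes was 0.0775 and 0.0892 in these fits, against 0.0019 on counts. Of all tested genes, 1 and 2 passed, against 938 on counts. The log2 fold change turned positive on TPM + 1 and TPM + 0.1 for TCP1 (0.0770 and 0.0771), CCT3 (0.0071 in both), CCT4 (0.0486 and 0.0488), CCT5 (0.137 in both) and CCT7 (0.0025 in both). TCP1, near 0 on counts, was also positive with upper quartile scaling (0.0022), the length and GC offset (0.0137), that offset with the block (0.0141), protein-coding genes only (0.0027) and without DMSO replicate 1 (0.0039; range over the libraries left out -0.0346 to 0.0039). Leaving out 1 library gave 1 to 5 members, a members' median of -0.122 to -0.0743, and 322 to 861 of all genes. Upper quartile scaling gave 461 genes higher and 400 lower, and DESeq2 164 and 467, against 411 and 527.

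No pairing by replicate number was seen: same-numbered deviations correlated at 0.001, -0.0432 and 0.0143 for numbers 1, 2 and 3. Differently numbered libraries gave -0.0394 to 0.0359, and with 3 libraries per group a weak pairing could go unseen. With the replicate block 826 genes and 4 members passed, CCT3 being lost (edgeR adjusted p = 0.0648).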
